A study of Homo sapiens with 10 samples.

Results

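The effect profile described here is that of PC3 cells treated with GW-516 for 48 hours, set against PC3 cells expressing a Scramble hairpin. Its members are 4 of the 10 RNA-seq libraries of the series, 2 labelled GW-516 and 2 labelled Scramble, with all genes of the count tables considered. PC3 is an established human prostate cancer cell line from a bone metastasis that grows without androgen. Per the labels, the GW-516 cells received the compound for 48 hours, the PRT4165 cells received PRT4165 for 48 hours, the RNF2 shRNA1 cells stably expressed a hairpin against RNF2, and the Scramble cells stably expressed a control hairpin and no compound. All cells shared the same culture medium with serum. The labels give no dose for either compound, no hairpin for the compound-treated cells and no group that received solvent alone. Effects of GW-516, of its solvent, of the hairpin vector and of separate culture therefore cannot be told apart in the comparison with Scramble. GW-516 is known from the labels by its code name only. PRT4165 is known as an inhibitor of the ubiquitin ligase activity of Polycomb repressive complex 1 (PRC1).

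PRC1 is one of the complexes that keep developmental genes silent. Its catalytic subunits RNF2 and RING1 attach ubiquitin to histone H2A, and PRC2, whose catalytic subunits are EZH2 and EZH1, methylates histone H3 at overlapping sites. In prostate cancer cells Polycomb proteins are known for silencing differentiation and cell-cycle inhibitor genes. Cells exposed to a toxic or oxidising compound commonly switch on NRF2 targets, which detoxify and rebuild glutathione, and the integrated stress response, in which the factors ATF4, ATF3 and DDIT3 change transcription while protein synthesis is slowed. Both programmes are given below with the cell cycle, inflammatory, adhesion and metabolic genes.

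Total counts were 83917665 and 80652630 in the GW-516 libraries, against 72015560 and 66126440 in the Scramble libraries, within a range of 65877850 to 108380198 over the series. Genes with at least 1 count numbered 25920 and 25723 in the GW-516 libraries, against 23644 and 23340 in the Scramble libraries. With every library thinned to 65877850 counts, these numbers were 25485 and 25379 in GW-516, against 23535 and 23333 in Scramble, so the larger number of detected genes in GW-516 was present at equal depth. Mitochondrial genes took 2.25% and 2.26% of counts in GW-516, against 2.47% and 2.51% in Scramble. The 2 libraries of a group were nearly alike in GW-516 and in Scramble. Their variance was 2.20 times that of independent counting between the GW-516 libraries and 2.15 times between the Scramble libraries, and 1.12 and 1.09 times after halving the counts because both ends of a fragment were counted. The RNF2 shRNA1 libraries gave 2.19 and 1.11 times. The PRT4165 libraries differed by 6.89 times, and 3.70 times after halving. Those labelled RNF2 shRNA2 differed by 12.2 times, and 6.63 times after halving. The labels do not state whether the libraries of 1 group are separate cultures, so the p-values below measure the spread between these libraries, which may be technical. Counts of called genes are therefore also given with near-identical pairs summed to 1 sample each. GW-516 and Scramble are then 1 sample each among 7, and are assumed to vary like the PRT4165 and RNF2 shRNA2 pairs, which alone give the spread.

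Levels are given in CPM, counts scaled to library size after TMM normalisation. Markers of the cell line were present in both groups. Mean levels were 179 CPM in GW-516 against 123 CPM in Scramble for the epithelial keratin KRT8, 1048 CPM in GW-516, against 1113 CPM in Scramble for vimentin and 506 CPM in GW-516, against 384 CPM in Scramble for the adhesion receptor CD44. No single gene checks the label GW-516 itself.

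Most of the genes tested differed between GW-516 and Scramble, and large changes were mostly increases. In edgeR's quasi-likelihood test with Benjamini-Hochberg adjustment, 10252 of 18478 genes had an adjusted p below 0.05 (55.5%), the rule by which a gene is called here. Of these, 4890 were higher (26.5%) and 5362 were lower (29%) in GW-516. With the near-identical pairs summed, 3216 were higher and 3667 were lower. A change of at least 2-fold was called in 1414 genes that were higher (7.65%) and in 258 that were lower (1.4%). The median log2 fold change over all genes tested was -0.00. High-abundance genes leaned down and low-abundance genes leaned up. The median was -0.16 for 2519 genes above 100 CPM, and 0.30 for 5374 genes at or below 1 CPM. Above 100 CPM, 58.6% of genes were called lower and 23.5% higher. A gene could pass the expression filter through the GW-516 libraries alone, which can raise the median of the lowest class.

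**Figure D1:**
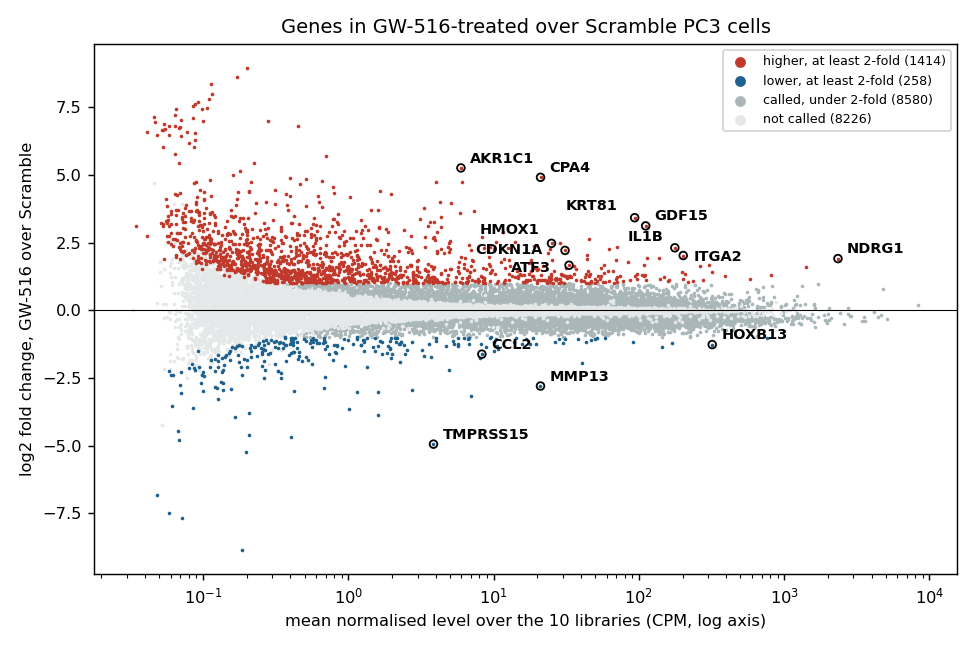
Log2 fold change of each of 18478 genes in GW-516 over Scramble (vertical) against its mean level over the 10 libraries in CPM (horizontal, log axis), coloured by the call. The 1414 red genes at least 2-fold higher outnumber the 258 blue genes at least 2-fold lower; fitted values of genes with no counts in one group depend on the prior count.

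CPA4, CDKN1A, HMOX1 and ATF3 were all higher in GW-516. CPA4, a secreted metallocarboxypeptidase (chromosome 7, 129932974 to 129964020, plus strand, on the GRCh37 build of the count tables), had 72.7 and 71.8 CPM in the GW-516 libraries, against 2.46 and 2.33 CPM in the Scramble libraries. It rose 30.2-fold (log2 fold change 4.92, SE 0.08, adjusted p = 2.99e-24, edgeR). CDKN1A, which encodes the cyclin-dependent kinase inhibitor p21 (chromosome 6, 36644305 to 36655116, plus strand), had 69.6 and 72.4 CPM in the GW-516 libraries, against 16.02 and 14.5 CPM in the Scramble libraries. It rose 4.64-fold (log2 fold change 2.21, SE 0.06, adjusted p = 3.9e-20), although PC3 is known to lack functional p53. HMOX1, the haem-degrading enzyme haem oxygenase 1 (chromosome 22, 35776354 to 35790207, plus strand), had 69.7 and 66.8 CPM in the GW-516 libraries, against 12.95 and 11.6 CPM in the Scramble libraries. It rose 5.56-fold (log2 fold change 2.47, SE 0.06, adjusted p = 2.91e-20). ATF3, a stress-induced transcription factor (chromosome 1, 212738676 to 212794119, plus strand), had 49.9 and 51.8 CPM in the GW-516 libraries, against 16.3 and 15.7 CPM in the Scramble libraries, and rose 3.17-fold (log2 fold change 1.67, SE 0.05, adjusted p = 3.92e-18). For all of these genes both GW-516 libraries lay above both Scramble libraries, with a gap far wider than the distance between libraries of a group. These genes were chosen with earlier results of these data known, so this adds no separate support. In bulk RNA, a change in a cell fraction and a change in the RNA of each cell cannot be told apart.

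The AP-1 element TGANTCA, which is bound by FOS and JUN proteins and reads alike on both strands, was found in the promoter windows (250 bases before to 50 after the start) of 5 of the 12 genes of a list of proteases and invasion genes that have one, 41.7%, in those of 7 of 24 chemokine and cytokine genes, 29.2%, and in 7.76% of all 27305 windows. Among the genes with the largest changes, 2 of 7 windows of the 12 largest increases and 2 of 7 of the 12 largest decreases held it, 28.6% each. It was in 3 of 7 windows of haematopoietic markers, 42.9%, and in 1 of 17 windows of immediate-early genes, 5.88%. The 5 protease genes were CPA4, MMP7, MMP10, PLAUR and SERPINB2. The 7 chemokine and cytokine genes were CCL7, CXCL8, CXCL11, IL1A, IL1RN, IL11 and TNFSF15, of which CCL7 and CXCL11 were lower in GW-516. The 250 bases before the start of CPA4, MMP10 and CXCL8 are shown 5′ to 3′ on the gene's strand (RefSeq, GRCh38.p14), with the AP-1 element in capitals, because they are among the increased genes that hold it. CPA4 holds 2 copies, 1 of which overlaps an NRF2 element (TGACNNNGC), and MMP10 and CXCL8 hold 1 each. A match is a description of the sequence, not a binding site. The levels of MMP10, a stromelysin, and CXCL8, a chemokine, are given with their groups.
CPA4 (chr7:130292911-130293160, plus strand): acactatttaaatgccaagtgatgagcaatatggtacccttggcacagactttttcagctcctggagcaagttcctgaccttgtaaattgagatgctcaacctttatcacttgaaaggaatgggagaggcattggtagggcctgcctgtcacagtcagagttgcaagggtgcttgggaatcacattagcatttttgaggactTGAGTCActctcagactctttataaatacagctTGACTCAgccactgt
MMP10 (chr11:102780629-102780878, minus strand): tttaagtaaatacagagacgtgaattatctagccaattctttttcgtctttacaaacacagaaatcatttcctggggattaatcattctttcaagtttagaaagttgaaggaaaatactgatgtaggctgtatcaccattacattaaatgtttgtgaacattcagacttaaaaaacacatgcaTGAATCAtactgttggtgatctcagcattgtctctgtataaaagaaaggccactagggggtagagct
CXCL8 (chr4:73740319-73740568, plus strand): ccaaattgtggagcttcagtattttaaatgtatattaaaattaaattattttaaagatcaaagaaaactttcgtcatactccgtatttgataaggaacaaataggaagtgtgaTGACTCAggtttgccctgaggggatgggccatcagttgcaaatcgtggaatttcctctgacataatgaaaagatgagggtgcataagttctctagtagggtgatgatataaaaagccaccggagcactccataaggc

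The core subunits of PRC1 changed little. Values in parentheses here and below are log2 fold changes of GW-516 over Scramble, unless another group is named, and positive ones are higher in GW-516. Counts of list members called against Scramble stand beside 26.5% higher and 29% lower over all genes. RNF2 had 26.9 and 28.1 CPM in the GW-516 libraries, against 30.6 and 28.3 CPM in the Scramble libraries, and did not pass the test (log2 fold change -0.10, SE 0.05, adjusted p = 0.109). In the RNF2 shRNA1 libraries it had 12.1 and 11.96 CPM, while the libraries labelled RNF2 shRNA2 held 33.5 and 35.3 CPM and are used in the fit only. RING1 fell by 0.18 on the log2 scale (adjusted p = 0.0397), with 11.9 and 12.4 CPM in the GW-516 libraries, against 13.6 and 14.0 CPM in the Scramble libraries; this call was lost with pairs summed (adjusted p = 0.244) and with each library left out. It was also lost with RLE size factors (0.0579), no filter (0.0831), a filter of 1 CPM in 2 libraries (0.0946) and DESeq2 (0.108). BMI1, the ring-finger partner of RNF2, had 221 and 225 CPM in the GW-516 libraries, against 251 and 255 CPM in the Scramble libraries (log2 fold change -0.18, adjusted p = 0.00761; 0.123 with pairs summed, 0.0784 without Scramble replicate 2 and 0.0826 without GW-516 replicate 1). EZH2 had 53.3 and 50.9 CPM in the GW-516 libraries, against 75.9 and 75.3 CPM in the Scramble libraries, and fell 1.45-fold (log2 fold change -0.54, SE 0.04, adjusted p = 3.34e-11).

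Among 24 tested PRC1 subunit genes, 5 were higher and 12 lower, with a median log2 fold change of -0.10, beside 26.5% higher and 29% lower over all genes. The median was -0.06 under a filter of 1 CPM in 2 libraries. With pairs summed, or without Scramble replicate 2, 3 were higher and 6 lower, and without GW-516 replicate 1 the lower count was also 6. The largest changes were in PHC1, a polyhomeotic subunit, with 4.52 and 4.49 CPM in the GW-516 libraries, against 10.6 and 10.6 CPM in the Scramble libraries (log2 fold change -1.24, SE 0.10, adjusted p = 6.68e-11), and in BCORL1, a subunit of a variant PRC1, with 39.0 and 40.5 CPM in the GW-516 libraries, against 17.6 and 17.9 CPM in the Scramble libraries (log2 fold change 1.16, SE 0.05, adjusted p = 3.24e-15). PHC1 was below and BCORL1 above its Scramble levels in both libraries. SCMH1 and BCOR fell (-0.63 and -0.38). Of 11 PRC2 genes, 7 were lower and 2 higher (median -0.34). PHF19, an accessory subunit that binds chromatin, fell most, with 63.6 and 67.8 CPM in the GW-516 libraries, against 116 and 118 CPM in the Scramble libraries (-0.83), followed by EZH2, the histone-binding subunits RBBP7 (-0.47) and RBBP4 (-0.45), and SUZ12 (-0.39). The accessory subunits JARID2 (0.37) and PHF1 (0.43) rose. Of 10 genes for enzymes and partners that remove ubiquitin from H2A, 4 were lower, beside 29% of all genes: USP22 (-0.58), USP7 (-0.44), USP3 (-0.13) and ASXL2 (-0.08). With pairs summed, or with any 1 library left out, 2 were lower.

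Developmental transcription factors known as Polycomb targets did not move in one direction. Of 48 listed, 31 were abundant enough to test; 12 were higher and 6 lower (median 0.15). HOXB13, a homeobox factor of the prostate lineage, had 201 and 200.4 CPM in the GW-516 libraries, against 487 and 478 CPM in the Scramble libraries, and fell 2.41-fold (log2 fold change -1.27, SE 0.03, adjusted p = 5.79e-21). FOXA1, which opens chromatin for steroid receptors, had 88.9 and 94.7 CPM in the GW-516 libraries, against 157 and 156 CPM in the Scramble libraries (-0.77). HOXA13 had 36.3 and 34.7 CPM in the GW-516 libraries, against 60.3 and 58.4 CPM in the Scramble libraries (-0.74). These lineage factors were lower in both GW-516 libraries. SOX9 had 124 and 124 CPM in the GW-516 libraries, against 90.1 and 89.2 CPM in the Scramble libraries (0.47), and GATA6 (0.73) and TFAP2A (0.76) also rose. HOXA5 rose at low level, with a mean of 1.00 CPM in GW-516, against 0.138 CPM in Scramble.

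The 12 largest increases among called genes of at least 5 CPM in 1 group included enzymes, secreted proteins and surface proteins of epithelia. Only genes without overlap between the libraries of the 2 groups were eligible. AKR1C1, an aldo-keto reductase of steroids and xenobiotics (chromosome 10, 4934796 to 5025475, plus strand), had 24.9 and 22.7 CPM in the GW-516 libraries, against 0.614 and 0.623 CPM in the Scramble libraries, and rose 38.4-fold (log2 fold change 5.26, SE 0.15, adjusted p = 3.11e-19). Its family has near-identical copies, so reads could be assigned to the wrong member. ATP6V0A4, a subunit of the proton pump, had 14.8 and 14.8 CPM in the GW-516 libraries, against 0.544 and 0.547 CPM in the Scramble libraries (log2 fold change 4.76, SE 0.21, adjusted p = 1.5e-12). Both genes were near the lower end of detection in Scramble and moderately abundant in GW-516. Beside CPA4, the remaining increases were the long non-coding RNA ENSG00000269927 (4.73; 23.1 and 22.1 CPM in GW-516, against 1.00 and 0.684 CPM in Scramble), the long non-coding RNA SIRLNT (4.31), keratin 6A KRT6A (3.99; 12.8 and 12.4 CPM in GW-516, against 0.740 and 0.851 CPM in Scramble), the mucin MUC5AC (3.97), the water and glycerol channel AQP3 (3.80), the mucin-modifying enzyme GCNT3 (3.72), the ligand WNT9A (3.68; 28.1 and 26.7 CPM in GW-516, against 1.93 and 2.36 CPM in Scramble), DEPP1 (3.61) and TCIM (3.45).

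The 12 largest decreases, chosen by the same rule, were smaller after the first. TMPRSS15, the intestinal protease enteropeptidase (chromosome 21, 19641433 to 19858197, minus strand), had 0.375 and 0.332 CPM in the GW-516 libraries, against 11.0 and 10.9 CPM in the Scramble libraries, and fell 30.9-fold (log2 fold change -4.95, SE 0.17, adjusted p = 8.44e-18). PWWP3B had 2.14 and 2.37 CPM in the GW-516 libraries, against 19.6 and 20.5 CPM in the Scramble libraries (log2 fold change -3.15, SE 0.11, adjusted p = 9.4e-18). Both genes were thus well detected in Scramble and scarce in GW-516. MMP13, a collagenase, had 5.57 and 6.06 CPM in the GW-516 libraries, against 40.9 and 40.0 CPM in the Scramble libraries, and fell 6.96-fold (log2 fold change -2.80, SE 0.08, adjusted p = 9.03e-19). CDH11, a mesenchymal cadherin, had 0.613 and 0.640 CPM in the GW-516 libraries, against 5.65 and 4.41 CPM in the Scramble libraries, and fell 8.02-fold, and PTN, the growth factor pleiotrophin, had 0.818 and 0.888 CPM in the GW-516 libraries, against 6.25 and 6.98 CPM in the Scramble libraries (-2.95). CCL2, which attracts monocytes, had 4.82 and 4.74 CPM in the GW-516 libraries, against 14.6 and 14.7 CPM in the Scramble libraries, and fell 3.08-fold (log2 fold change -1.62, SE 0.10, adjusted p = 2.7e-12). Decreases of between 2.68- and 3.85-fold were called in SHISA3, a secreted-signal antagonist, in the protocadherin PCDH15, in the antisense RNA TMEM108-AS1, in STUM, in the urotensin gene UTS2B and in LRMDA.

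**Figure D2:**
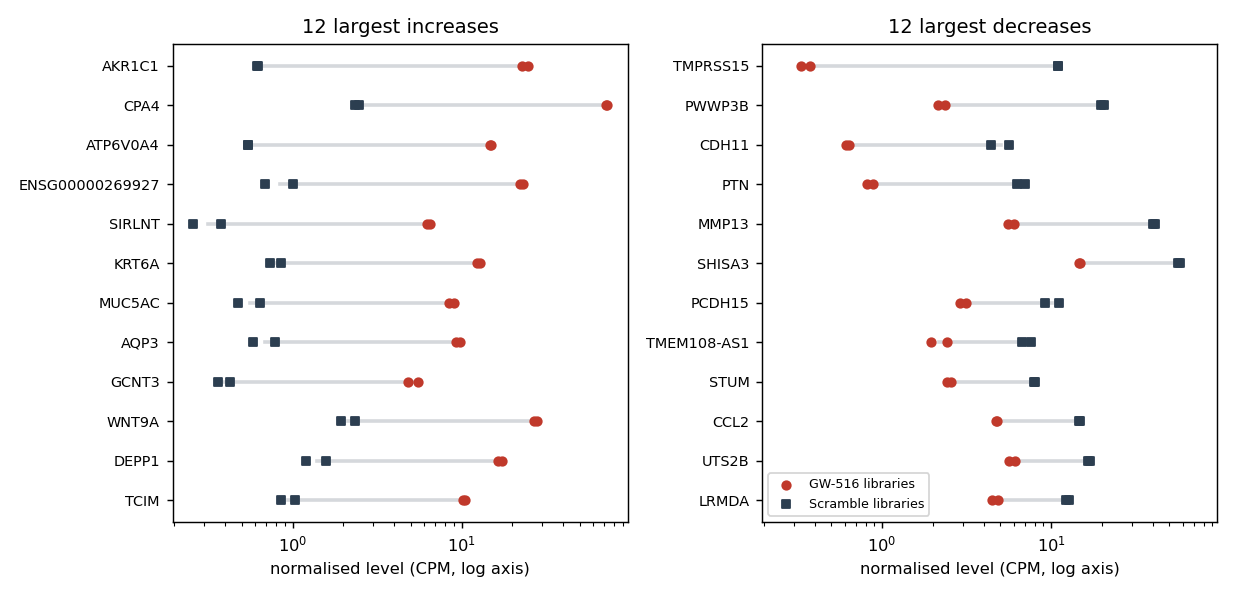
Levels in CPM (log axis) of the 12 largest increases and the 12 largest decreases, with a red point for each GW-516 library, a dark square for each Scramble library and a grey line between the group means. Only genes without overlap between the groups were eligible, so the separation of the points follows from the selection. AKR1C1 is 38.4-fold higher and TMPRSS15 30.9-fold lower in GW-516.

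NRF2 targets were mostly higher. Of 28 tested, 23 were higher and 1, the malic enzyme ME1, was lower (median 0.42; 26.5% of all genes were called higher). The ME1 call was lost with pairs summed and with any 1 library left out. The aldo-keto reductase AKR1B10 had 12.7 and 12.2 CPM in the GW-516 libraries, against 1.28 and 1.29 CPM in the Scramble libraries (log2 fold change 3.27, SE 0.13, adjusted p = 1.8e-16). AKR1B10 thus joined the AKR1C genes among the strongest increases of the list. The quinone reductase NQO1 had 339.9 and 340.2 CPM in the GW-516 libraries, against 216 and 217 CPM in the Scramble libraries (0.65). Increases reached from detoxification to iron storage and glutathione: the ferritin chains FTH1 and FTL rose by 0.80 and 0.74, the glutathione-synthesis subunit GCLM by 0.55, the cystine transporter SLC7A11 by 0.40 and the thioredoxin reductase TXNRD1 by 0.22. FTH1 averaged 6318 ± 47.7 CPM in GW-516 and 3639 ± 26.5 CPM in Scramble (SD, n = 2 each). The pentose-phosphate enzymes TKT (-0.02) and TALDO1 (-0.04) did not pass the test. The NRF2 element TGACNNNGC was searched in promoter windows (250 bases before to 50 after the start, both strands, RefSeq, GRCh38.p14). It was found in 6 of the 20 list genes with a window, 30.0%, and in 13.6% of all 27305 windows. The 6 genes included ME1, the gene called lower. The element was not particular to NRF2 targets. It was in 9 of 30 windows of integrated stress response genes, also 30.0%, and in 3 of 7 of haematopoietic markers, 42.9%. Further lists also lay above 30.0%, among them lysosome genes (7 of 14 windows), metallothionein genes (3 of 5), BCL2-family genes and proteases (4 of 12 each). Immune checkpoint genes equalled it with 3 of 10 windows. Some lists held the element less often, such as cholesterol genes with 1 of 17 windows, 5.88%.

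Integrated stress response genes were more often higher than lower. Of 35 genes, 20 were higher and 8 lower (median 0.35), beside 26.5% and 29% of all genes. GDF15, a stress-induced secreted factor, had 301 and 301 CPM in the GW-516 libraries, against 34.8 and 34.4 CPM in the Scramble libraries (log2 fold change 3.12, SE 0.10, adjusted p = 3.12e-07). DDIT4, an inhibitor of mTORC1 signalling, had 301 and 299 CPM in the GW-516 libraries, against 118 and 118 CPM in the Scramble libraries (log2 fold change 1.34, SE 0.03, adjusted p = 1.57e-20). The stress regulators SESN2 (1.15), CHAC1 (1.22), DDIT3 (0.92) and TRIB3 (0.53) rose with ATF3. All are known targets of ATF4 or of the related stress factors. The branch that makes serine, glycine and one-carbon units did not: PHGDH (-0.36), PSAT1 (-0.29), SHMT2 (-0.40) and MTHFD2 (-0.25) fell. ATF4 itself (194 CPM in GW-516, 194 CPM in Scramble) and its target ASNS (-0.06) did not pass the test. Of 20 transfer RNA synthetase genes, which ATF4 is known to induce in amino acid shortage, 16 were lower and 2, GARS1 (0.36) and CARS1 (0.25), were higher (median -0.23). Genes above 100 CPM were called lower in 58.6% (median -0.16). LARS1 had 460.3 and 464 CPM in the GW-516 libraries, against 601 and 598 CPM in the Scramble libraries, a fall of 1.30-fold (adjusted p = 5.52e-11). The ATF4 composite element TGATGNAAN was found in 6 of 16 synthetase windows, 37.5%, in 5 of 30 windows of the stress list, 16.7%, and in 3.67% of all windows.

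Of 20 endoplasmic reticulum chaperone and unfolded protein response genes, 7 were higher and 7 lower, and 4 and 4 with pairs summed. Their median of -0.03 turned to 0.01 under a filter of 1 CPM in 2 libraries. Over all genes, 26.5% were higher and 29% lower. DNAJB9, a co-chaperone induced by misfolded proteins, had 22.4 and 22.4 CPM in the GW-516 libraries, against 10.6 and 11.0 CPM in the Scramble libraries (1.05). HERPUD1, which serves degradation of misfolded proteins, had 119 and 117.2 CPM in the GW-516 libraries, against 70.6 and 70.7 CPM in the Scramble libraries (0.74). The chaperone HSPA5 rose by 0.07. Of 18 heat shock genes, 12 were lower and 4 higher (median -0.23), beside 58.6% lower and a median of -0.16 over all genes above 100 CPM. HSP90AB1, an abundant chaperone, averaged 2967 ± 3.35 CPM in GW-516 and 3879 ± 1.29 CPM in Scramble (SD, n = 2 each), a fall of 1.31-fold, and the co-chaperone gene DNAJB4 rose 1.86-fold.

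**Figure D3:**
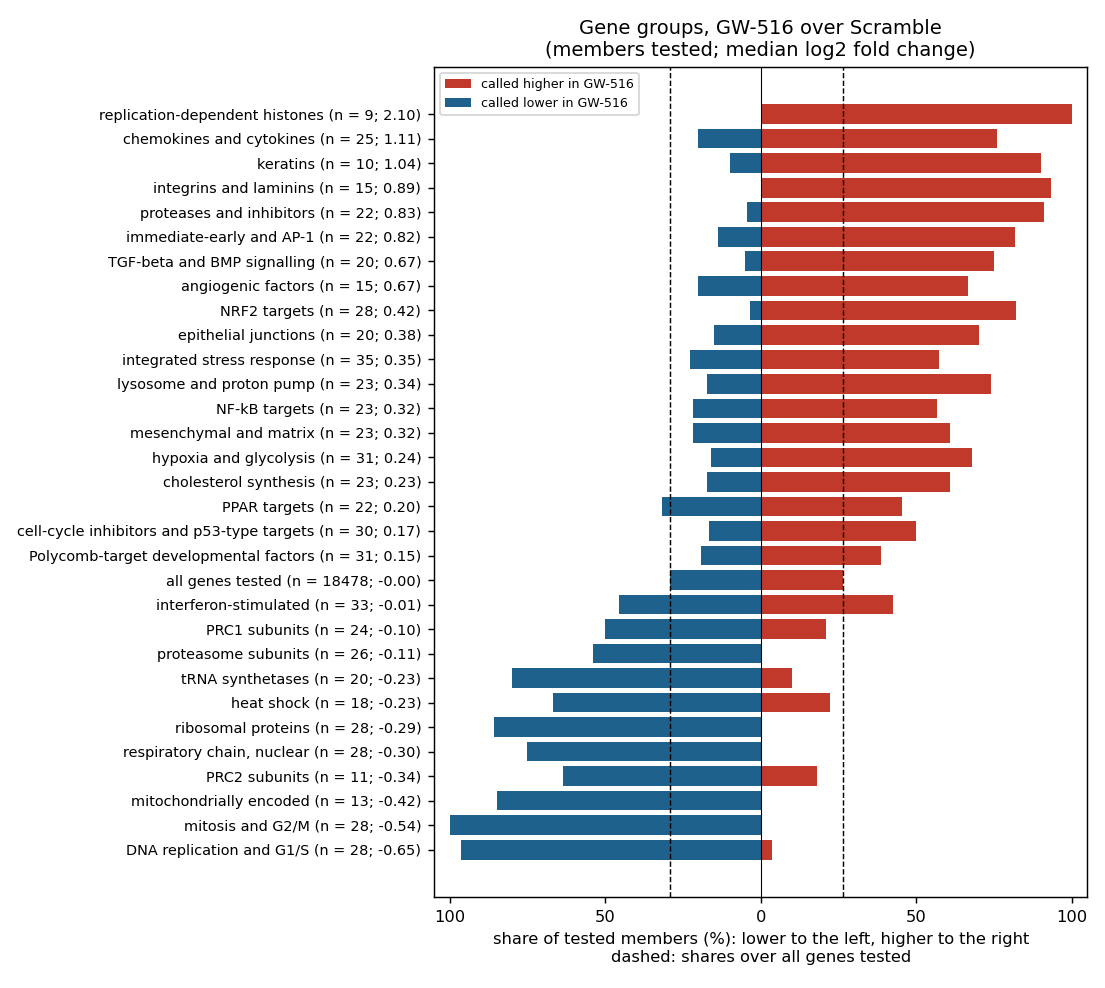
Share of the tested members of each gene group called lower (blue, to the left) or higher (red, to the right) in GW-516 over Scramble, ordered by the median log2 fold change given in the row label. Dashed lines mark the shares over all 18478 genes (29% lower, 26.5% higher); all 28 mitosis genes are lower and all 9 tested histone genes are higher.

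Genes of cell division were lower almost throughout. Of 28 DNA replication and G1/S genes, 27 were lower and 1, the cyclin CCNE1 (0.40), was higher (median -0.65; 29% of all genes were called lower). All 28 mitosis and G2/M genes were lower (median -0.54). No member fell by 2-fold or more. TYMS, which makes thymidylate, had 150.2 and 148 CPM in the GW-516 libraries, against 269.8 and 268 CPM in the Scramble libraries (log2 fold change -0.85, SE 0.03, adjusted p = 3.29e-17). MCM7, part of the replicative helicase, had 272 and 275 CPM in the GW-516 libraries, against 447 and 439.7 CPM in the Scramble libraries (log2 fold change -0.70, SE 0.03, adjusted p = 1.88e-16). The other helicase subunits MCM2 (-0.79), MCM4 (-0.66), MCM5 (-0.66), MCM6 (-0.66) and MCM3 (-0.55) fell by similar amounts, as did the S-phase transcription factor E2F1 (-0.79). The subunits of the replicative helicase thus fell together. Among mitotic genes FOXM1, the transcription factor of the G2/M programme, had 95.2 and 94.5 CPM in the GW-516 libraries, against 159 and 164 CPM in the Scramble libraries (log2 fold change -0.77, SE 0.03, adjusted p = 4.56e-16). The proliferation antigen MKI67 had 148 and 148 CPM in the GW-516 libraries, against 243 and 245 CPM in the Scramble libraries (-0.72). The cyclin CCNB1 had 153 and 153 CPM in the GW-516 libraries, against 253 and 254 CPM in the Scramble libraries (-0.73). The smallest change of the group was that of the phosphatase gene CDC25B (-0.21).

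The E2F element TTTCGCGC was found, on either strand, in the promoter windows of 4 of the 23 replication genes that have one, 17.4%, and in 0.546% of all 27305 windows. It was in 2 of 11 windows of replication-dependent histone genes, 18.2%, and in 1 of 22 windows of mitosis genes, 4.55%. The 4 replication genes are MCM2, MCM3, MCM6 and MCM7. The 250 bases before the start of MCM6 and MCM7 are shown 5′ to 3′ on the gene's strand (RefSeq, GRCh38.p14), with the E2F element in capitals, because both are among the lower genes that hold it. 
MCM6 (chr2:135876444-135876693, minus strand): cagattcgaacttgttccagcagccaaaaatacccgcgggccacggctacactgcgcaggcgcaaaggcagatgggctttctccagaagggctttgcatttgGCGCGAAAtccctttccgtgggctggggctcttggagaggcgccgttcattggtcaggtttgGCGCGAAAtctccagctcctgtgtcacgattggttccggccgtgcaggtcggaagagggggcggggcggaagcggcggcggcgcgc
MCM7 (chr7:100101398-100101647, minus strand): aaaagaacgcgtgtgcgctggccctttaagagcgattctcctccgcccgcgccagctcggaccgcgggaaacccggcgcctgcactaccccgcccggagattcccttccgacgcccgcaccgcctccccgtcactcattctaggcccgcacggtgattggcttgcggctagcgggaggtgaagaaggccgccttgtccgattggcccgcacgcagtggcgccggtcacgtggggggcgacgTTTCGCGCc

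Replication-dependent histone genes moved the other way. All 9 tested members were at least 2-fold higher (median 2.10; 7.65% of all genes were). The linker histone H1-2 had 44.7 and 44.8 CPM in the GW-516 libraries, against 10.8 and 10.0 CPM in the Scramble libraries (log2 fold change 2.10, SE 0.06, adjusted p = 1e-19). H2BC12 had 96.6 and 95.2 CPM in the GW-516 libraries, against 32.9 and 31.5 CPM in the Scramble libraries (1.57). H2AC6 had 43.0 and 43.7 CPM in the GW-516 libraries, against 12.1 and 11.8 CPM in the Scramble libraries (1.86). Linker and core histone genes were alike in direction. H4C8 had 25.4 and 27.7 CPM in the GW-516 libraries, against 4.74 and 4.49 CPM in the Scramble libraries (2.52). Messenger RNA of these genes normally ends in a stem-loop without a poly(A) tail, and the libraries were made from messenger RNA, so only the part of it that such a library keeps was measured. Near-identical copies make the single members uncertain. Of 30 cell-cycle inhibitor and p53-type target genes, 15 were higher and 5 lower (median 0.17). CDKN2B, an inhibitor of cyclin D kinases, had 122 and 124 CPM in the GW-516 libraries, against 65.7 and 64.7 CPM in the Scramble libraries (log2 fold change 0.92, SE 0.04, adjusted p = 5.22e-16). GADD45B had 30.1 and 28.6 CPM in the GW-516 libraries, against 11.5 and 10.2 CPM in the Scramble libraries (1.44). MDM2 (0.64) and TP53INP1 (2.10) rose, BAX (-0.25), XPC (-0.52), DDB2 (-0.41) and the inhibitor CDKN2C (-0.86) fell, and CDKN2A (-0.10) did not pass the test.

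**Figure D4:**
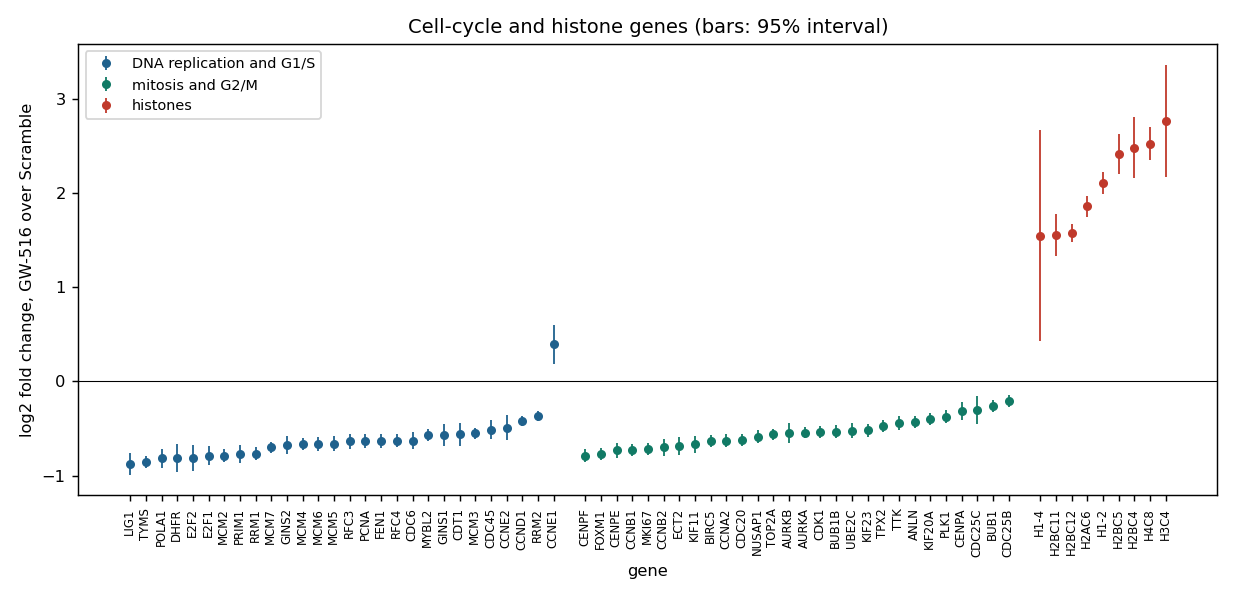
Log2 fold change in GW-516 over Scramble with its 95% interval for each tested DNA replication (blue), mitosis (green) and histone gene (red). CCNE1 at 0.40 is the single division gene above 0, and the histone genes run from 1.54 for H1-4 to 2.76 for H3C4.

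Of 15 BCL2-family genes, which control mitochondrial cell death, 8 were higher and 4 lower, beside 26.5% and 29% of all genes. With pairs summed 5 were higher, and under a filter of 1 CPM in 2 libraries 2 were lower. The survival gene BCL2 had 11.1 and 10.7 CPM in the GW-516 libraries, against 22.3 and 23.5 CPM in the Scramble libraries, and fell 2.10-fold (log2 fold change -1.07, SE 0.07, adjusted p = 1.03e-12). The pro-death BMF had 8.68 and 8.74 CPM in the GW-516 libraries, against 3.07 and 2.90 CPM in the Scramble libraries (1.54). BMF is one of the proteins that neutralise BCL2. The survival gene MCL1 had 347 and 343 CPM in the GW-516 libraries, against 293 and 286 CPM in the Scramble libraries (0.25), and BCL2A1 rose at low level (2.65). Members of opposite function thus rose together, and BAX (-0.25) fell.

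Secreted inflammatory factors were largely higher, with CCL2 among the exceptions. Of 25 tested chemokine and cytokine genes, 19 were higher and 5 lower (median 1.11); 3 were lower with pairs summed. IL1B, the cytokine interleukin 1 beta (chromosome 2, 113587328 to 113594480, minus strand), had 236 and 229 CPM in the GW-516 libraries, against 45.7 and 48.0 CPM in the Scramble libraries, and rose 4.96-fold (log2 fold change 2.31, SE 0.04, adjusted p = 4.04e-24). CXCL8, a neutrophil attractant, had 153 and 156 CPM in the GW-516 libraries, against 44.98 and 43.9 CPM in the Scramble libraries, and rose 3.48-fold (adjusted p = 2.59e-21). IL11 had 13.6 and 13.2 CPM in the GW-516 libraries, against 2.08 and 2.46 CPM in the Scramble libraries (2.56). Interleukin and chemokine genes were both among the increases. CCL20, which attracts lymphocytes and dendritic cells, had 6.44 and 6.08 CPM in the GW-516 libraries, against 1.12 and 0.760 CPM in the Scramble libraries (2.73). The groups did not overlap for any of these. They were named with their values known, so this adds no separate support. The share of all genes without overlap was not counted. The macrophage growth factor CSF1 (1.77), IL32 (1.66) and LIF (0.85) also rose. The genes that fell were CCL2 (-1.62), CXCL16 (-0.32), CXCL1 (-0.22), CXCL11 (-1.58) and CCL7, the last with 4 and 2 counts in GW-516 against 20 and 16 in Scramble.

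Of 23 NF-kB target genes, 13 were higher and 5 lower (median 0.32). Complement C3 had 30.9 and 32.7 CPM in the GW-516 libraries, against 14.4 and 13.9 CPM in the Scramble libraries (log2 fold change 1.16, SE 0.06, adjusted p = 1.12e-14). The protease gene PLAU had 825 and 835 CPM in the GW-516 libraries, against 590.2 and 600.0 CPM in the Scramble libraries (0.48). The NF-kB subunit NFKB1 (-0.35), the regulator NFKBIZ (-0.58) and the adhesion receptor ICAM1 (-0.20) fell. Interferon-stimulated genes were divided, with 14 of 33 higher and 15 lower, beside 26.5% and 29% of all genes. Their median was -0.01 and lay between -0.11 and 0.03 over the alternatives. ISG20 had 59.0 and 61.0 CPM in the GW-516 libraries, against 20.7 and 20.4 CPM in the Scramble libraries (1.54). OAS1 had 50.8 and 51.2 CPM in the GW-516 libraries, against 30.3 and 29.7 CPM in the Scramble libraries (0.77). OAS3 had 49.7 and 49.4 CPM in the GW-516 libraries, against 78.0 and 81.0 CPM in the Scramble libraries (-0.68). Members of the OAS family, sensors of double-stranded RNA, were thus divided. Of 18 MHC class I presentation genes, 5 were higher and 7 lower, beside 26.5% and 29% of all genes; the immunoproteasome gene PSMB8 fell to 5.47 and 5.68 CPM in GW-516, against 10.7 and 10.5 CPM in Scramble, and HLA-E had 29.5 and 28.4 CPM in the GW-516 libraries, against 19.1 and 19.1 CPM in the Scramble libraries. HLA and IFIT genes have near-identical relatives. Of 12 immune checkpoint genes, 9 were higher and 2 lower (median 0.90), and 1 was lower with pairs summed or without Scramble replicate 1, Scramble replicate 2 or GW-516 replicate 2. NT5E, which makes adenosine, had 28.7 and 28.5 CPM in the GW-516 libraries, against 11.4 and 11.5 CPM in the Scramble libraries (log2 fold change 1.32, SE 0.06, adjusted p = 5.07e-15), the ligand gene CD274 rose at low level (3.11 CPM in GW-516, against 1.62 CPM in Scramble), and the phagocytosis inhibitor CD47 fell (-0.40).

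Immediate-early and AP-1 genes, the first to answer growth or stress signals, were mostly higher: 18 of 22 were higher and 3 lower (median 0.82). FOS had 12.2 and 13.7 CPM in the GW-516 libraries, against 1.42 and 1.25 CPM in the Scramble libraries, and rose 9.66-fold (log2 fold change 3.27, SE 0.14, adjusted p = 5.4e-16). FOSB had 11.9 and 12.7 CPM in the GW-516 libraries, against 2.54 and 2.52 CPM in the Scramble libraries (2.28). KLF6 had 106 and 107 CPM in the GW-516 libraries, against 49.2 and 49.5 CPM in the Scramble libraries (1.11), and JUN averaged 149 CPM in GW-516 and 77.5 CPM in Scramble (0.94). Both FOS-family and JUN-family members were thus among the higher genes. The FOS-family gene FOSL1 fell (335 CPM in GW-516, against 437 CPM in Scramble; -0.38). Among 18 genes that feed back on MAP kinases, 8 were higher and 6 lower, beside 26.5% and 29% of all genes. The phosphatase DUSP5 had 158 and 158 CPM in the GW-516 libraries, against 49.6 and 50.7 CPM in the Scramble libraries (log2 fold change 1.66, SE 0.04, adjusted p = 2.61e-21). DUSP1 had 58.4 and 57.2 CPM in the GW-516 libraries, against 11.9 and 12.3 CPM in the Scramble libraries (2.26). DUSP6 had 286 and 282 CPM in the GW-516 libraries, against 168 and 165 CPM in the Scramble libraries (0.77), while the inhibitors SPRY1 (-0.40) and SPRED1 (-0.28) fell. DUSP genes encode phosphatases that act on MAP kinases, and SPRY and SPRED proteins are inhibitors of the pathway. Of 10 EGF-family ligand and receptor genes, 5 were higher; the ligand HBEGF had 37.4 and 36.1 CPM in the GW-516 libraries, against 11.8 and 12.04 CPM in the Scramble libraries (log2 fold change 1.62, SE 0.06, adjusted p = 1.7e-17). Its receptor EGFR had 65.8 and 65.5 CPM in the GW-516 libraries, against 45.8 and 44.5 CPM in the Scramble libraries (0.54).

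Of 20 TGF-beta and BMP pathway genes, 15 were higher and 1 lower (median 0.67). The increases took in ligands, antagonists and targets. The activin antagonist FST had 79.9 and 81.4 CPM in the GW-516 libraries, against 19.9 and 19.1 CPM in the Scramble libraries (log2 fold change 2.05, SE 0.05, adjusted p = 2.59e-21). The ligand BMP2 had 38.5 and 36.7 CPM in the GW-516 libraries, against 15.7 and 15.3 CPM in the Scramble libraries (1.28). The target ID3 had 86.7 and 87.2 CPM in the GW-516 libraries, against 43.5 and 41.1 CPM in the Scramble libraries (1.04). ID proteins block differentiation factors and are known targets of BMP signals. ID1 (1.32) and ID2 (1.00) rose with ID3, TGFB2 (-0.14) was the gene called lower, a call lost with pairs summed and with any 1 library left out, and SMAD3 (0.07) did not pass the test. Of 17 YAP and TEAD target genes, 5 were higher and 5 lower, shares near those over all genes (26.5% higher and 29% lower); CCN1 had 70.1 and 68.9 CPM in the GW-516 libraries, against 50.8 and 50.6 CPM in the Scramble libraries (0.45), CCN2 fell (-0.36). The coactivator gene WWTR1 had 186 and 187 CPM in the GW-516 libraries, against 267 and 272 CPM in the Scramble libraries (-0.53).

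Genes for attachment to the basement membrane rose together. Of 15 integrin and laminin genes, 14 were higher (median 0.89). ITGA2, a collagen receptor subunit (chromosome 5, 52285156 to 52390609, plus strand), had 383 and 391.9 CPM in the GW-516 libraries, against 94.9 and 95.6 CPM in the Scramble libraries, and rose 4.07-fold (log2 fold change 2.03, SE 0.03, adjusted p = 5.98e-24). ITGB4, the laminin receptor subunit of hemidesmosomes, had 221 and 219 CPM in the GW-516 libraries, against 56.8 and 57.9 CPM in the Scramble libraries (log2 fold change 1.94, SE 0.04, adjusted p = 2.72e-22). ITGA5, the fibronectin receptor subunit, had 558 and 562 CPM in the GW-516 libraries, against 209.5 and 210.3 CPM in the Scramble libraries (1.42). Both libraries of GW-516 lay far above those of Scramble for these genes, which were named with their values known. The fibronectin gene FN1 had 68.9 and 71.2 CPM in the GW-516 libraries, against 32.2 and 28.0 CPM in the Scramble libraries (1.22). The laminin subunit LAMB3 had 68.7 and 69.6 CPM in the GW-516 libraries, against 21.8 and 23.0 CPM in the Scramble libraries (1.63). For all of these genes the levels in GW-516 were more than 2-fold those in Scramble.

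Keratins and junction genes were also higher in the main. Of 10 tested keratins, 9 were higher and 1, KRT18 (-0.20), was lower (median 1.04). KRT81 had 268 and 266 CPM in the GW-516 libraries, against 25.9 and 23.8 CPM in the Scramble libraries, and rose 10.7-fold (log2 fold change 3.42, SE 0.05, adjusted p = 3.07e-19); KRT81, KRT86 and the keratin 6 genes have near-identical copies. KRT8 had 180.1 and 178 CPM in the GW-516 libraries, against 123 and 123 CPM in the Scramble libraries (0.54), and KRT19 averaged 783 CPM in GW-516 and 484 CPM in Scramble (0.69). Of 20 epithelial junction genes, 14 were higher and 3 lower (median 0.38); 9 were higher with pairs summed, and the median was 0.22 without Scramble replicate 1. The junction protein E-cadherin, CDH1, had 39.3 and 39.1 CPM in the GW-516 libraries, against 15.3 and 15.6 CPM in the Scramble libraries (log2 fold change 1.35, SE 0.05, adjusted p = 1.89e-16). The epithelial transcription factor ELF3 had 92.8 and 91.8 CPM in the GW-516 libraries, against 38.1 and 38.0 CPM in the Scramble libraries (1.28). Mesenchymal and matrix genes moved in both directions, with 14 of 23 higher and 5 lower (3 lower with pairs summed, without Scramble replicate 2 or without GW-516 replicate 2). SNAI1 (1.54) and SNAI2 (0.98), repressors of epithelial genes, rose alongside CDH1. LOXL2, a matrix cross-linking enzyme, had 154 and 151 CPM in the GW-516 libraries, against 68.3 and 67.4 CPM in the Scramble libraries (1.17). The collagen gene COL1A2 had 142 and 136 CPM in the GW-516 libraries, against 253 and 248 CPM in the Scramble libraries (-0.85). Matrix genes were therefore found on both sides. ZEB1 (-0.17) fell and N-cadherin, CDH2 (0.04), did not pass the test.

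Proteases and their inhibitors were mostly higher. Of 22 tested, 20 were higher and 1, MMP13, lower (median 0.83). TIMP1, an inhibitor of matrix metalloproteinases, had 658 and 666 CPM in the GW-516 libraries, against 209 and 207 CPM in the Scramble libraries, and rose 3.18-fold (log2 fold change 1.67, SE 0.03, adjusted p = 1.03e-21). PLAUR, the receptor of the plasminogen activator urokinase, had 109 and 110.2 CPM in the GW-516 libraries, against 50.3 and 49.1 CPM in the Scramble libraries (1.14), and its ligand PLAU rose as given above. The stromelysin MMP10 rose at low level, with 4.77 and 4.65 CPM in the GW-516 libraries, against 0.837 and 0.882 CPM in the Scramble libraries (2.45). The urokinase pair and the metalloproteinase both rose. The membrane protease MMP14 (0.73) and the lysosomal proteases CTSD (0.95) and CTSL (0.83) rose as well. Of 15 angiogenic factor genes, 10 were higher and 3 lower (median 0.67). ADM, the vasodilator adrenomedullin, had 136 and 134 CPM in the GW-516 libraries, against 27.7 and 28.6 CPM in the Scramble libraries (log2 fold change 2.26, SE 0.04, adjusted p = 8.14e-23). ADM and VEGFA, both known to be induced by hypoxia, rose together. VEGFA had 136 and 139 CPM in the GW-516 libraries, against 75.0 and 75.7 CPM in the Scramble libraries (0.87), while FGF2 (-0.89) and VEGFC (-0.43) fell.

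Of the hypoxia and glycolysis list, 21 of 31 were higher and 5 lower (median 0.24). The lower count was 2 with pairs summed and 3 without Scramble replicate 1 or without GW-516 replicate 1. NDRG1, a stress-responsive gene of very high level, averaged 4608 ± 10.4 CPM in GW-516 and 1226 ± 1.72 CPM in Scramble (SD, n = 2 each), a rise of 3.76-fold (log2 fold change 1.91, SE 0.02, adjusted p = 6.12e-27). The glucose transporter SLC2A1 had 212 and 209 CPM in the GW-516 libraries, against 119 and 121 CPM in the Scramble libraries (0.81), and the lactate exporter SLC16A3 (1.07) and the carbonic anhydrase CA9 (0.65) rose. The core glycolytic enzymes ENO1 (-0.24), LDHA (-0.15) and GAPDH (-0.07) fell slightly. Of 22 PPAR targets and receptors, 10 were higher and 7 lower; the lower count was 2 with pairs summed, 4 without Scramble replicate 2 and 3 without GW-516 replicate 1. ANGPTL4, a lipase inhibitor, had 184 and 187 CPM in the GW-516 libraries, against 35.6 and 37.9 CPM in the Scramble libraries (log2 fold change 2.33, SE 0.05, adjusted p = 2.68e-19). FABP4, a fatty acid carrier, had 105.1 and 104 CPM in the GW-516 libraries, against 27.6 and 27.5 CPM in the Scramble libraries (1.92). PLIN2, the coat of lipid droplets, had 419 and 412 CPM in the GW-516 libraries, against 191 and 192 CPM in the Scramble libraries (1.12). These are well-known targets of the PPAR family. The calls of the PPAR list stand beside 26.5% higher and 29% lower over all genes. Its median was 0.20, and 0.10 under limma-voom. The PPAR genes named here all rose, while 7 members of the list were called lower. The receptor gene PPARD itself had 81.1 and 83.0 CPM in the GW-516 libraries, against 39.1 and 40.5 CPM in the Scramble libraries (1.04).

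Cholesterol synthesis and uptake genes were higher in 14 of 23 and lower in 4 (median 0.23; 2 lower with pairs summed or without GW-516 replicate 2). The sterol sensor INSIG1 had 46.2 and 43.9 CPM in the GW-516 libraries, against 29.6 and 31.5 CPM in the Scramble libraries (0.56). Of 15 fatty acid synthesis genes, 6 were higher and 8 lower; 3 were higher and 5 lower with pairs summed, and 5 were lower without Scramble replicate 2 or without GW-516 replicate 1. Over all genes, 26.5% were higher and 29% lower. FASN fell (-0.27) and LPIN1 rose (0.61). Of 28 nuclear respiratory chain genes, 21 were lower (median -0.30), and of 13 mitochondrially encoded genes 11 were lower (median -0.42). MT-ND1, a complex I subunit, averaged 1176 ± 6.00 CPM in GW-516 and 1808 ± 48.6 CPM in Scramble (SD, n = 2 each; log2 fold change -0.62, SE 0.03, adjusted p = 3e-12). The complex III subunit UQCRC2 had 234 and 232 CPM in the GW-516 libraries, against 333 and 335 CPM in the Scramble libraries (-0.52). The decreases of the named respiratory genes were all below 2-fold. Among all genes above 100 CPM, 58.6% were called lower (median -0.16).

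Of 28 ribosomal protein genes, 24 were lower (median -0.29); RPL3 averaged 855 ± 5.93 CPM in GW-516 and 1215 ± 3.70 CPM in Scramble (SD, n = 2 each), a fall of 1.42-fold. These genes have many near-identical pseudogenes. Genes above 100 CPM were called lower in 58.6% (median -0.16), beside which the ribosomal and proteasome counts stand. The proteasome median was -0.11. Of 26 proteasome genes, 14 were lower, and 6 with pairs summed and 9 without GW-516 replicate 2. Lysosome and proton pump genes were higher in 17 of 23 (median 0.34) and lower in 4, a count that was 2 without Scramble replicate 2, and all 4 lower calls were lost with pairs summed. The autophagy receptor SQSTM1 had 918 and 916 CPM in the GW-516 libraries, against 523 and 535 CPM in the Scramble libraries (log2 fold change 0.79, SE 0.03, adjusted p = 5.57e-18). GABARAPL1, an autophagosome protein, had 52.1 and 50.7 CPM in the GW-516 libraries, against 25.9 and 25.9 CPM in the Scramble libraries (0.99). Of 9 AhR pathway genes, 7 were higher. The receptor AHR had 77.8 and 78.8 CPM in the GW-516 libraries, against 52.5 and 50.2 CPM in the Scramble libraries (0.61). CYP1A1, its best-known target, was scarce in both groups but lay higher in GW-516, at 1.10 CPM, against 0.330 CPM in Scramble. Metallothioneins bind zinc and copper. Of 6 tested metallothionein and zinc genes, 5 were higher, with MT1X at 20.1 and 19.7 CPM in GW-516, against 7.61 and 7.28 CPM in Scramble. Of 17 clock genes, 6 were higher and 8 lower (5 lower with pairs summed, without Scramble replicate 2 or without GW-516 replicate 2). Over all genes, 26.5% were higher and 29% lower. The repressor PER3 fell to 7.30 and 7.61 CPM in GW-516, against 17.7 and 17.9 CPM in Scramble (-1.26). BMAL1 had 22.1 and 22.4 CPM in the GW-516 libraries, against 12.9 and 11.3 CPM in the Scramble libraries (0.88).

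Of 20 stem-cell marker genes tested, 12 were higher and 3 lower; EPAS1 had 218 and 223 CPM in the GW-516 libraries, against 95.9 and 93.0 CPM in the Scramble libraries (1.22). The filament gene NES had 502 and 504 CPM in the GW-516 libraries, against 759 and 749 CPM in the Scramble libraries (-0.58). Androgen-response and luminal prostate genes were mostly too scarce to test, with 7 of 13 tested; beside NDRG1 and HOXB13, FKBP5 had 68.3 and 66.8 CPM in the GW-516 libraries, against 102 and 98.8 CPM in the Scramble libraries (-0.57). FKBP5 is a known androgen- and glucocorticoid-responsive gene. SLC45A3 had 33.8 and 34.1 CPM in the GW-516 libraries, against 21.4 and 21.2 CPM in the Scramble libraries (0.67). Of 12 neuroendocrine genes 3 were tested, and ENO2 had 18.9 and 19.4 CPM in the GW-516 libraries, against 12.95 and 14.0 CPM in the Scramble libraries (0.51). Markers of blood cells were scarce. Of 13 haematopoietic markers 6 were tested; their summed level was 19.6 and 20.7 CPM in GW-516, against 21.5 and 20.1 CPM in Scramble, nearly all of it CD33, and CD3E and MS4A1 had no counts in these libraries. ITGAM and LYZ, myeloid genes, were called higher at means of 0.642 CPM and 0.821 CPM in GW-516, against 0.0292 CPM and 0.145 CPM in Scramble. With a filter of 1 CPM in 2 libraries, 0 haematopoietic markers were called higher, and their median turned from 0.55 to -0.11. Stromal and endothelial markers were higher in 7 of 9 tested, with a summed level of 64.7 and 63.5 CPM in GW-516 against 38.1 and 39.0 CPM in Scramble, most of it COL1A1. Under a filter of 1 CPM in 2 libraries 4 were higher. The part of these cell types in the results was not tested.

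The direct comparison of the compounds, a contrast with no Scramble term in the fit of all 10 libraries, called 7594 of 18478 genes (41.1%). Log2 fold changes in this paragraph and in that on genes lower under GW-516 are of GW-516 over PRT4165. Of the genes called, 3348 were higher (18.1%) and 4246 lower (23%) in GW-516 than in PRT4165. With pairs summed these were 1934 and 2621. Comparisons of the compounds with Scramble share the Scramble libraries, so levels are set side by side here and only the direct difference is tested. Both compounds were applied for 48 hours and their doses are not given, so the values compare these cultures and not equal exposures. CPA4, HMOX1, CDKN1A and ATF3 were all higher under GW-516. CPA4 had 72.7 and 71.8 CPM in the GW-516 libraries, against 18.9 and 20.3 CPM in the PRT4165 libraries (log2 fold change 1.89, SE 0.06, adjusted p = 6.68e-18). HMOX1 had 69.7 and 66.8 CPM in GW-516, against 20.3 and 20.6 CPM in PRT4165 (1.74). CDKN1A had 69.6 and 72.4 CPM in GW-516, against 28.9 and 30.0 CPM in PRT4165 (1.27). The PRT4165 levels lay between those of GW-516 and Scramble for these genes. The largest excesses in GW-516 were WNT9A (3.11; 28.1 and 26.7 CPM in GW-516, against 2.80 and 3.58 CPM in PRT4165), FOS (3.10; 12.2 and 13.7 CPM in GW-516, against 1.61 and 1.38 CPM in PRT4165), GCNT3 (2.97), ARC (2.97) and AKR1C1 (2.77). The PRT4165 libraries overlapped with the Scramble libraries in FOS, which had 1.42 and 1.25 CPM in Scramble.

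Several genes were lower under GW-516 than under PRT4165. FABP4 had 105.1 and 104 CPM in GW-516, against 356 and 353 CPM in PRT4165 (log2 fold change -1.76, SE 0.04, adjusted p = 9.05e-20). IL1B had 236 and 229 CPM in GW-516, against 496 and 478 CPM in PRT4165 (-1.07). The mucin MUC5B had 61.5 and 60.2 CPM in GW-516, against 129 and 141 CPM in PRT4165 (-1.15). These genes were above Scramble in both compounds, by the larger amount in PRT4165. The neuropeptide NTS (-1.21), the matrix proteoglycan VCAN (-1.18) and LINC01355 (-1.10) completed the largest deficits. MMP13, low in both compounds, had 5.57 and 6.06 CPM in GW-516, against 1.75 and 1.15 CPM in PRT4165 (1.98). Some levels were close: CCL2 had 4.82 and 4.74 CPM in GW-516, against 5.49 and 4.30 CPM in PRT4165, and the difference of -0.04 had a 95% interval of -0.27 to 0.19. For CDH1 the difference was -0.06 with an interval of -0.16 to 0.05, and for PLIN2 -0.03 with an interval of -0.08 to 0.03.

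By gene group, all 28 mitosis genes were lower in GW-516 than in PRT4165 (median -0.50), with MKI67 at 148 and 148 CPM in GW-516, against 274 and 259.7 CPM in PRT4165. Of the 28 replication genes, 26 were lower (median -0.33). Member counts in this paragraph stand beside 18.1% higher and 23% lower over all genes. All 9 histone genes were higher, as were 22 of 28 NRF2 targets (median 0.36), 23 of 35 stress-response genes (median 0.29) and 18 of 22 protease-list genes (median 0.90). Integrins and laminins were divided, with 4 of 15 higher and 7 lower (median -0.01); ITGB4 had 221 and 219 CPM in GW-516, against 244 and 259 CPM in PRT4165.

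**Figure D5:**
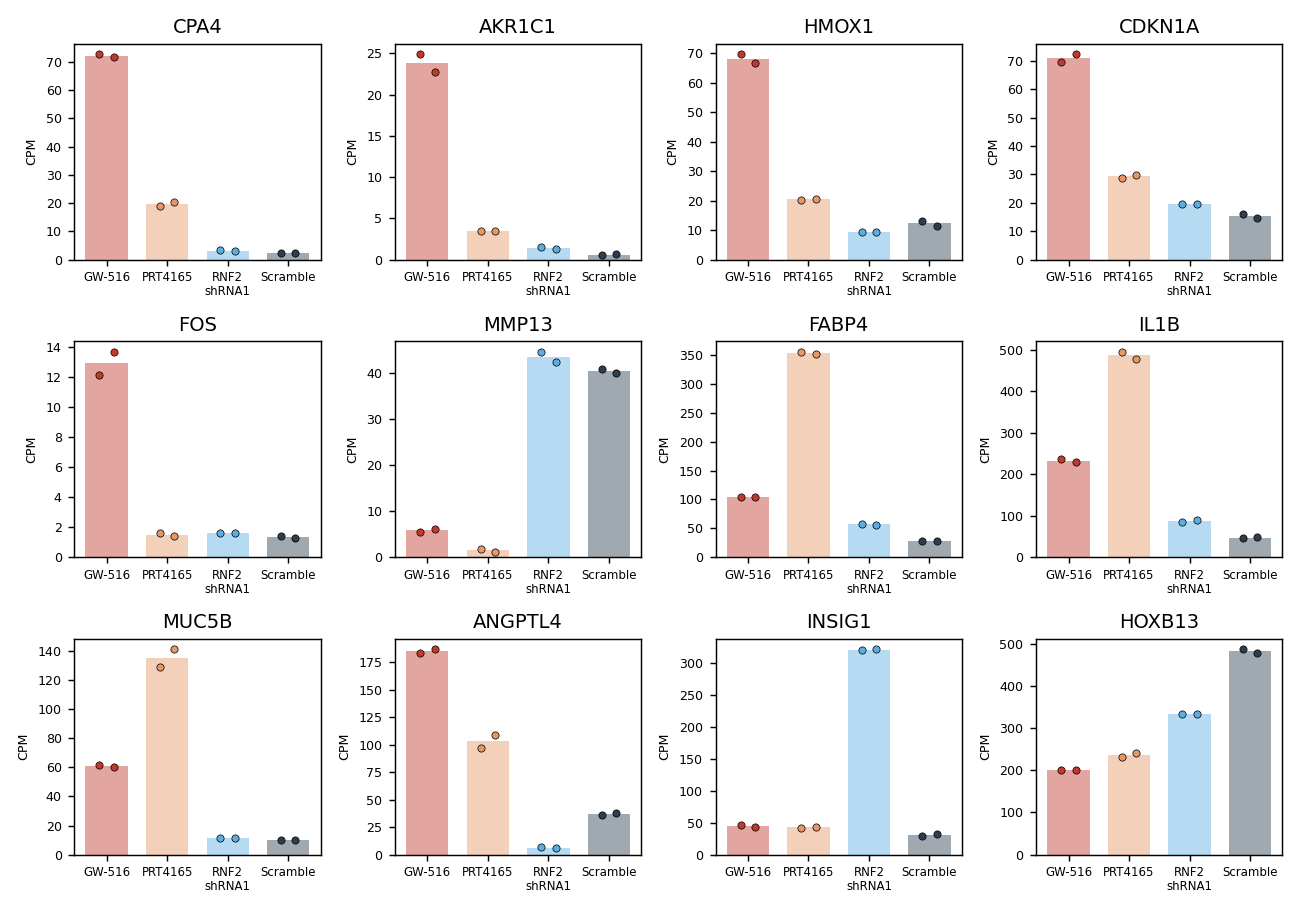
Levels in CPM of 12 named genes in the GW-516, PRT4165, RNF2 shRNA1 and Scramble libraries, with 1 point per library and a bar from 0 to the group mean. CPA4, AKR1C1, HMOX1, CDKN1A and FOS are highest in GW-516, FABP4, IL1B and MUC5B are highest in PRT4165, and INSIG1 is highest in RNF2 shRNA1.

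Against cells with the RNF2 hairpin, 11349 of 18478 genes were called (61.4%), 5727 higher (31%) and 5622 lower (30.4%) in GW-516. With pairs summed these were 4164 and 4280. RNF2 itself had 26.9 and 28.1 CPM in the GW-516 libraries, against 12.1 and 11.96 CPM in the RNF2 shRNA1 libraries (log2 fold change 1.19, SE 0.06, adjusted p = 5.53e-15). Log2 fold changes here are of GW-516 over RNF2 shRNA1. Of the marker genes, CPA4 (4.52), HMOX1 (2.87) and CDKN1A (1.85) were higher in GW-516. ATF3 had 49.9 and 51.8 CPM in GW-516, against 50.3 and 52.7 CPM in RNF2 shRNA1, a difference of -0.02 with a 95% interval of -0.12 to 0.08. CCL2, low in both, had 4.82 and 4.74 CPM in GW-516, against 4.31 and 3.38 CPM in RNF2 shRNA1 (adjusted p = 0.0282, 0.131 with pairs summed, 0.369 without RNF2 shRNA1 replicate 2, 0.0969 without GW-516 replicate 1 and 0.0707 without GW-516 replicate 2). ATF3 and CCL2 levels in the RNF2 hairpin cells lay near those in GW-516, and the CPA4 level did not. The largest excesses were the long non-coding RNAs SIRLNT and ENSG00000269927 (5.24), C15orf48 (5.03), the secreted hormone STC1 (4.90) and ANGPTL4, with 184 and 187 CPM in GW-516, against 6.53 and 6.33 CPM in RNF2 shRNA1 (4.85). SIRLNT had 6.28 and 6.49 CPM in GW-516, against 0 and 0.0936 CPM in RNF2 shRNA1.

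The largest deficits were TMPRSS15 (-4.35), PKHD1 (-3.53), the peptide gene UTS2 (-3.51), MMP13 (-2.90) and INSIG1. MMP13 had 5.57 and 6.06 CPM in GW-516, against 44.7 and 42.4 CPM in RNF2 shRNA1, and INSIG1 had 46.2 and 43.9 CPM in GW-516, against 321 and 322 CPM in RNF2 shRNA1 (log2 fold change -2.83, SE 0.04, adjusted p = 1.5e-25). Cholesterol genes as a group were lower in GW-516, with 20 of 23 called lower, 16 of them by at least 2-fold (median -1.24). Member counts in this paragraph stand beside 31% higher and 30.4% lower over all genes, with 661 of 18478 at least 2-fold lower. Stress-response genes were lower in 26 of 35 and higher in 5 (median -0.49), and transfer RNA synthetase genes were lower in 18 of 20 (median -0.44). NRF2 targets were higher in 19 of 28 (median 0.36), hypoxia and glycolysis genes in 29 of 31 (median 0.62), and keratins in 9 of 10 (median 1.87). All 28 mitosis genes were lower (median -0.71), while replication genes were divided, with 13 higher and 11 lower (median 0.04).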

How the data were processed

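RNA-seq was made from PC3 cells in 10 libraries of 5 groups with 2 libraries each. Per the file headers, the authors' deposited values are raw counts of reads per gene from featureCounts 1.4.3-p1 run against GENCODE 18 on the reverse strand, and both ends of a fragment were counted. The submitters' processing notes name hg19 (GRCh37), STAR and DESeq2 1.8.1 without saying what each did. Symbols were matched for 51812 of 57445 gene identifiers.

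From the counts, edgeR 4.0.16 (R 4.3.3) fitted a robust quasi-likelihood model with TMM factors to all 10 libraries, with 1 coefficient per group and 5 residual degrees of freedom, after its expression filter with a minimum count of 10. All adjusted p-values in the text come from this fit unless an alternative is named, are two-sided and were adjusted by Benjamini-Hochberg over 18478 genes; a gene was called below 0.05. The standard error is the log2 fold change divided by the root of the F statistic. Alternatives were size factors by RLE, other filters, DESeq2 1.42.0, limma-voom (limma 3.58.1), thinned counts, summed pairs, a replicate block and each library left out. The fit was tested on simulated data. Figures and tables were made with Python 3.11.15. The named genes were 9 fixed genes, the 12 largest increases and decreases of at least 5 CPM without overlap, up to 4 called members of each of 49 lists with the smallest p, and the 5 largest each way in the direct comparisons; other list members named show how a list divided and were chosen after their values were seen. The members and lists were chosen with earlier results of these data known. Of 1000 list entries, 991 were matched. Near-identical gene copies (AKR1C, histones, keratins, HLA, MT1, mucins, ribosomal proteins) can share reads. Promoter sequences are from RefSeq on GRCh38.p14, and gene positions are those of the count tables. Some genes of the lists are not reported here by name.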

Additional observations from a re-analysis of the deposited data

How the results depend on the processing

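Against Scramble, 4890 genes were higher and 5362 lower in GW-516. With near-identical pairs summed, 3216 were higher and 3667 lower, and 6837 of the 10252 called genes kept their call and direction; at least 2-fold changes numbered 1414 and 258. Against PRT4165, summed pairs gave 1934 higher and 2621 lower, keeping 4539 of 7594 calls, and at least 2-fold changes numbered 700.0 and 109. Against RNF2 shRNA1, at least 2-fold changes numbered 1872 and 661, and 8382 of 11349 calls were kept with pairs summed. Only 7 samples enter the summed fit, whose spread comes from the PRT4165 and RNF2 shRNA2 pairs alone, and a fold limit removes small changes by construction. With each library left out in turn, 4192 to 4278 genes were higher and 4400 to 4535 lower against Scramble, 2456 to 2988 and 3210 to 3862 against PRT4165, and 5001 to 5058 and 4887 to 4995 against RNF2 shRNA1. With a replicate block the counts were 4818 and 5306, 3254 and 4165, and 5671 and 5576. Libraries with the same number share only a number: the correlation of their deviations from the group means was -0.03 between GW-516 and Scramble, -0.02 with PRT4165 and -0.02 with RNF2 shRNA1, over 10684 genes. RLE size factors gave 5066 higher and 5106 lower against Scramble, DESeq2 4603 and 4821, limma-voom 4927 and 5353, no filter 5076 and 4966, a filter of 1 CPM 4603 and 4664, and the groups compared alone 5564 and 5621. Of 211 named genes called against Scramble, 205 were called under every alternative that kept the threshold; RING1, BMI1, USP3, ASXL2, CD33 and VIM were not. Leaving stricter thresholds aside, of 3525 values of named genes under alternatives, 3468 kept their side of the threshold, 54 lost the call and 3 gained it. Among values called in the main fit, 0 changed direction, and direction was not compared for the others. Apart from 9 fixed genes, the named genes were picked for large changes or small p in these fits. Their stability therefore does not stand for that of all genes called. Of 1372 counts of list members under alternatives, 93 moved by over 1.5 times.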

Other observations

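Long intergenic non-coding and antisense genes held larger shares of at least 2-fold increases in GW-516 than protein-coding genes. Of 990 long intergenic non-coding genes tested, 19.8% were at least 2-fold higher and 1.72% at least 2-fold lower, with a median log2 fold change of 0.38. Of 1247 antisense genes, 11.5% were at least 2-fold higher and 1.36% lower, with a median of 0.25. Of 13542 protein-coding genes, 6.56% were at least 2-fold higher and 1.21% lower, with a median of -0.04. Of 1017 processed pseudogenes, 3.24% were at least 2-fold higher and 2.36% lower, with a median of -0.16. These differences were not tested, and the gene types were not matched on abundance.

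The lean toward increases followed abundance. The median log2 fold change was 0.30 for 5374 genes with a mean of up to 1 CPM, 0.12 for 2373 genes from 1 to 5 CPM, 0.03 for 2703 genes from 5 to 20 CPM, -0.09 for 5509 genes from 20 to 100 CPM and -0.16 for 2519 genes above. Within protein-coding genes it was 0.51 in the lowest class and -0.16 in the highest. Over PRT4165 the medians ran from 0.24 in the lowest class to -0.10 in the highest, and over RNF2 shRNA1 from 0.27 to -0.15. With at least 10 counts in both libraries of one group and 0 in both of the other, 50 genes were present in GW-516 and listed at 0 in Scramble, and 4 were the reverse. The expression filter keeps a gene that reaches its count in the libraries of 1 group, and the classes use means that include GW-516. Genes that passed through GW-516 alone can therefore raise the median of the lowest class. What sets these patterns was not tested.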
